A study of Danio rerio with 15 samples.

Results

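Zebrafish embryos injected with a guide RNA alone were compared with embryos injected with phenol red alone, which is 10 of the 15 RNA samples of the study, 5 in each group. The guide RNA group received an RNA that targets ncapg2 and no nuclease, and the phenol red group received the tracer dye used for microinjection. All embryos came from matings of wild-type adults and were reared at 28 °C. RNA was taken from heads at 2 days post-fertilization, each sample being a pool of 20 embryos. The other 5 samples, with guide RNA plus Cas9, enter only where stated. The number given to the guide differs between the titles and the treatment labels, and no group without injection and no group with an unrelated guide is among the samples used here. The labels name replicates without saying what separates the pools, and the spread behind each p-value is that between pools. Members were taken by column, with libraries S6 to S10 for guide RNA and S1 to S5 for phenol red.

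A guide RNA directs Cas9 to a matching DNA sequence, and without the nuclease it cannot cut. This comparison is the study's background for the injection of guide RNA. RNAs made in vitro can be sensed by receptors such as Rig-I and Mda5, which switch on interferon-stimulated genes. The protein NCAPG2 belongs to condensin II, which folds chromosomes for cell division. At this stage the zebrafish eye is forming its lens, photoreceptors and pigment epithelium, and the beating heart, the liver bud and the yolk lie just behind and below the head.

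Between 39.79 and 49.3 M reads (M, mega) were recovered from the deposited values for the guide RNA libraries, against 34.97 to 46.46 M for the phenol red libraries. Normalized counts, which are the authors' gene counts divided by a size factor per library, were used throughout. Of 23009 genes, 21601 reached a normalized count of 10 in 5 or more libraries and were tested. Head markers were detected in every library. The forebrain gene foxg1a was at 1449 to 1903 with guide RNA and 1122 to 1815 with phenol red, and the rod opsin gene rho at 45458 to 75597 and 30270 to 77417. The posterior trunk gene hoxd13a was at 1.83 to 16.8 with guide RNA and 1.81 to 5.83 with phenol red. Libraries in the same column position of each group varied together. Deviations from the group means correlated across genes with r between 0.44 and 0.79 in the 5 pairs of the same position and between -0.48 and 0.28 in the 20 other pairs, and each library correlated best with its own position.

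**Figure D1:**
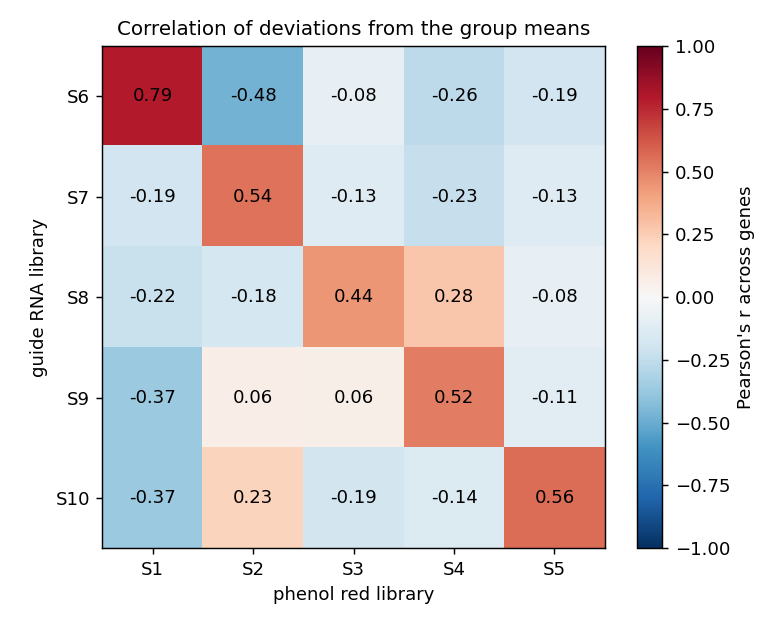
Pearson's r across genes between each guide RNA library (rows) and each phenol red library (columns), computed on deviations from the group means of log2(normalized count + 1). The highest value of each row and column lies on the diagonal, between 0.44 (S8 with S3) and 0.79 (S6 with S1).

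Without a pairing of libraries, no gene was called between guide RNA and phenol red. By limma 0 of 21601 genes (0%) had an adjusted p under 0.05 (Benjamini-Hochberg), the smallest adjusted p being 0.999976. edgeR and DESeq2 on the recovered reads and the authors' deposited table also called 0 genes. By limma 112 genes were higher (0.518%) and 112 lower (0.518%) at an unadjusted p under 0.05, 1.04% in all. At that threshold 219 genes (1.01%) passed by edgeR and 217 (1%) by DESeq2. An even spread of p would put 1080 genes there, so the absence of calls without pairing does not show that no gene differs. With column position as a block, 4 genes (0.0185%) were called and all were lower with guide RNA. They were rpe65a and rbp2a, which handle vitamin A, and nppa and vmhcl, which are expressed in heart muscle. With the same block edgeR called the same 4 genes, and 7.64% of genes had an unadjusted p under 0.05. By limma the block gave 1072 genes higher (4.96%) and 593 lower (2.75%) at that threshold, 7.71% in all.

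The calls with the block changed with single positions. It gave 5 genes without position 1 (S6 and S1), 74 without position 2 (S7 and S2), 2 without position 3 (S8 and S3), 0 without position 4 (S9 and S4) and 4 without position 5 (S10 and S5). The 4 genes were all called without position 1 or 2, 3 of them without position 5, 1 (vmhcl) without position 3 and 0 without position 4. Without pairing, 84.6% of genes had a 95% interval inside 1.5-fold and 94.7% inside 2-fold, and with the block 89.98% and 97.6% did.

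**Figure D2:**
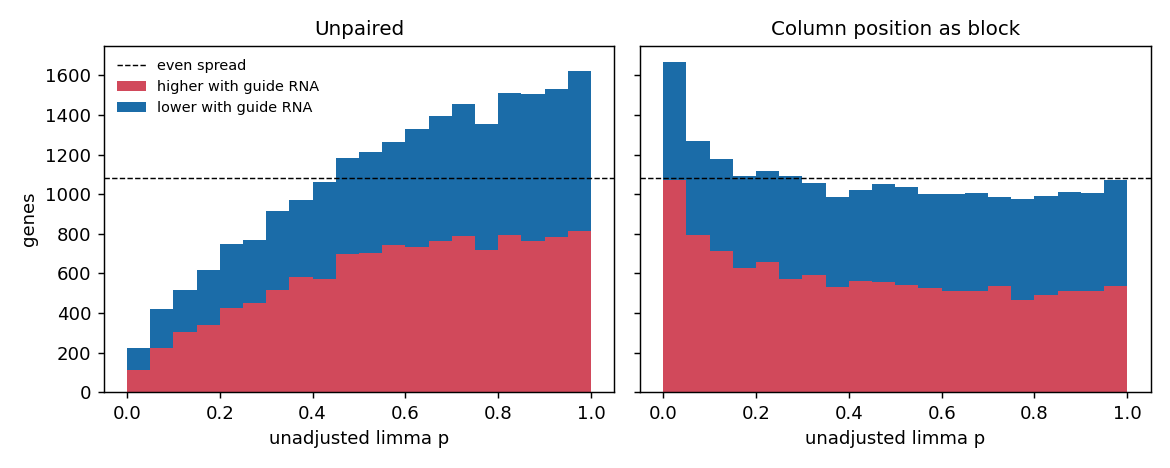
Number of genes by unadjusted limma p in bins of 0.05, without pairing (left) and with column position as a block (right), split into genes higher and lower with guide RNA. The bin under 0.05 holds 224 genes without pairing and 1665 with the block, of which 1072 are higher, and the dashed line marks an even spread.

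The targeted gene ncapg2 (ENSDARG00000060023) differed between the groups by less than the pools of a group differed among themselves. Its normalized counts were 988, 979, 901, 809 and 885 in S6 to S10 with guide RNA, against 834, 868, 945, 754 and 880 in S1 to S5 with phenol red. The groups overlapped, and guide RNA was higher in 4 of 5 positions. The means were 912 ± 73.7 with guide RNA and 856 ± 69.7 with phenol red (SD, n = 5 each), a log2 fold change of 0.09 ± 0.08 (SE) with a 95% interval of -0.07 to 0.26 (two-sided exact permutation p = 0.246). All 8 condensin genes tested had positive log2 fold changes, with a median of 0.08 against 0.0079 for all genes, where 54.7% were positive, and none was called. The shared ATPase subunit gene smc4 was at 0.20 ± 0.12 (SE) and ncapd2 of condensin I at 0.14 ± 0.09, and both had 1 low library, phenol red S1. The median was 0.049 without S4 and 0.048 without position 1. The condensin II subunits were at 0.08 ± 0.07 (ncapd3) and 0.06 ± 0.07 (ncaph2), the condensin I subunits at 0.05 ± 0.06 (ncapg) and 0.05 ± 0.07 (ncaph), and the shared subunit smc2 at 0.08 ± 0.08.

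Of the genes that handle vitamin A, rpe65a and rbp2a were lower with guide RNA in the fit with the block, and none was called without it. The visual cycle turns all-trans retinoid back into the 11-cis form that opsins need, and much of it takes place in the retinal pigment epithelium. The isomerase of that cycle is made from rpe65a (ENSDARG00000007480). Its normalized counts were 3569, 3525, 2917, 4256 and 4132 in S6 to S10 with guide RNA, against 5703, 4431, 4437, 6016 and 4875 in S1 to S5 with phenol red. Every guide RNA library was below every phenol red library, as for 24 of all genes (0.111%). The guide RNA mean was 72.3% of the phenol red mean, a log2 fold change of -0.47 ± 0.12 (SE), with an adjusted p of 0.999976 in the unpaired limma fit and 0.0114 with the block (SE 0.06). Without positions 3 or 4 the adjusted p with the block was 0.09.

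The other called gene of this kind was rbp2a, which encodes a cellular retinol-binding protein. It was at 1089, 655, 823, 669 and 608 in S6 to S10 with guide RNA, against 1290, 869, 1041, 870 and 970 in S1 to S5 with phenol red. The groups overlapped because both libraries of position 1 were high, and guide RNA was lower in 5 of 5 positions. The log2 fold change was -0.41 ± 0.16 (SE; 0.06 with the block, limma adjusted p = 0.0138). Without positions 3, 4 or 5 the adjusted p with the block was between 0.0897 and 0.0932.

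Further genes of vitamin A handling were drawn up after values had been seen, so their counts describe and do not test. Of 24 such genes tested, 20 had negative log2 fold changes, the median being -0.10. With the block 8 were lower at an unadjusted p under 0.05 (2.75% of all genes) and 0 higher (4.96% of all genes), and 2 were called, rpe65a and rbp2a (0.0185% of all genes). The smallest p of all genes in the unpaired limma fit was that of rlbp1b, at 0.000853 (limma adjusted p = 0.999976), which encodes a retinaldehyde-binding protein of the cycle. It was at 503, 582, 458, 717 and 527 with guide RNA, against 1256, 888, 658, 1021 and 824 with phenol red, and only S9 with guide RNA exceeded the lowest phenol red library, S3. Its log2 fold change was -0.72 ± 0.16 (SE), and with the block its limma adjusted p was 0.301. That adjusted p was 0.0012 without position 1 and between 0.228 and 0.690 without positions 2, 3, 4 or 5. Position 1 held the largest difference, -1.32, against -0.64 to -0.51 in the others. In the authors' deposited table rlbp1b had the smallest p, 0.000219, with an adjusted p of 0.999944.

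The retinol dehydrogenase gene rdh5 was at -0.47 ± 0.15 (SE), the retinol receptor gene stra6 at -0.32 ± 0.08, the RPE-retinal G protein-coupled receptor gene rgra at -0.33 ± 0.11 and rbp4l, a retinol-binding protein gene, at -0.29 ± 0.13, none of them called. The photoreceptor retinol dehydrogenase gene rdh8a was at -0.16 ± 0.10 and lower in 4 of 5 positions, and irbp, which encodes the retinoid-binding protein between retina and pigment epithelium, at -0.14 ± 0.15. Values of paralogs were -0.02 ± 0.07 for rlbp1a, 0.04 ± 0.11 for rpe65b and -0.10 ± 0.11 for rpe65c, and the retinoid transporter gene abca4a was at -0.005 ± 0.20. How the authors' counting treated reads shared between close paralogs is not known here, so values within these families carry that uncertainty.

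**Figure D3:**
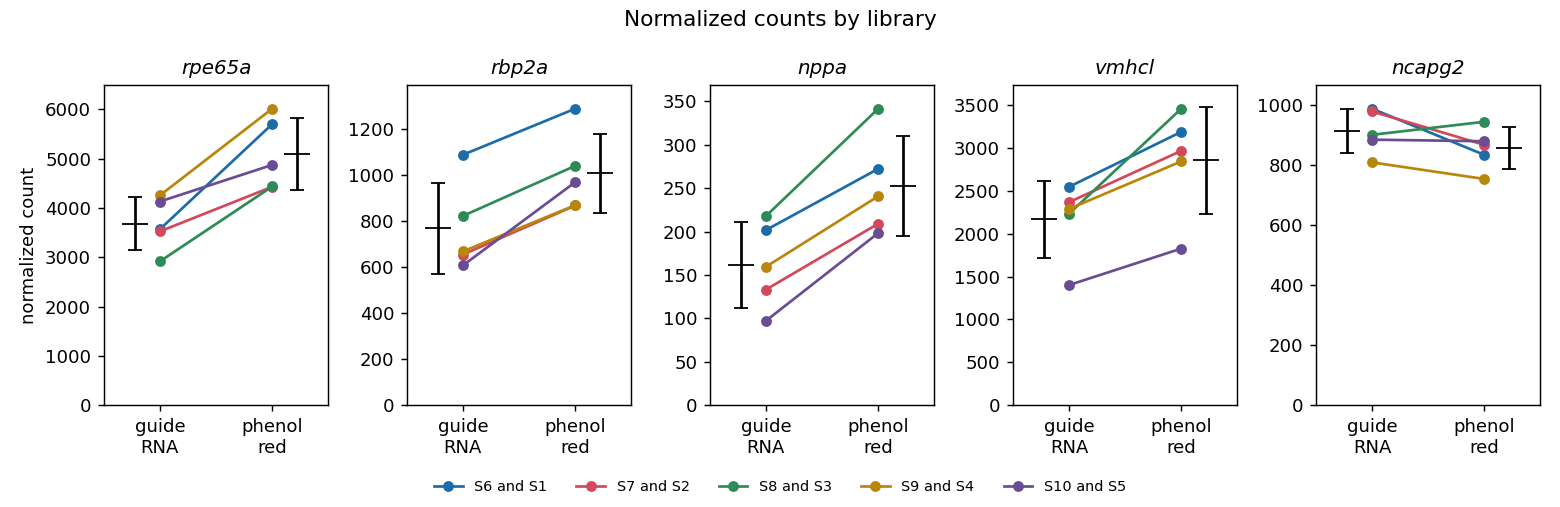
Normalized counts of the 4 genes called with the block and of ncapg2, with a line for each column position, guide RNA at the left and phenol red at the right of each panel, and beside them the mean and SD (n = 5). All 5 lines go to higher values in phenol red for rpe65a, rbp2a, nppa and vmhcl, and 1 of 5 does for ncapg2.

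Heart muscle genes were mostly lower with guide RNA, and 2 of them were called with the block. The natriuretic peptide gene nppa, made by the heart chambers, was at 202, 133, 218, 159 and 97.2 in S6 to S10 with guide RNA, against 272, 209, 342, 241 and 198 in S1 to S5 with phenol red. The groups overlapped, with S8 and S6 above the lowest phenol red library, and guide RNA was lower in 5 of 5 positions. Its log2 fold change was -0.67 ± 0.22 (SE; 0.09 with the block, limma adjusted p = 0.0109). The ventricular myosin gene vmhcl was at 2547, 2368, 2233, 2289 and 1401 with guide RNA, against 3189, 2968, 3460, 2845 and 1827 with phenol red. Both libraries of position 5 were low, and the groups overlapped through S5. Its log2 fold change was -0.40 ± 0.19 (SE; 0.05 with the block, limma adjusted p = 0.0109). Adjusted p with the block and 1 position left out was between 0.0073 and 0.0903 for nppa and between 0.0046 and 0.0616 for vmhcl.

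Of the 19 heart genes tested, a list that holds nppa and not vmhcl, 18 had negative log2 fold changes, against 45.3% of all genes. The median was -0.23, and -0.11 without S10. Lower at an unadjusted p under 0.05 were 2 without pairing and 11 with the block, where 2.75% of all genes were lower, and 0 were higher in either fit. In 5 of 5 positions 11 were lower, against 3.08% of all genes. The single genes of this list named here were chosen for display after values were seen. The myosin light chain genes myl7 and cmlc1 were at -0.38 ± 0.23 (SE) and -0.40 ± 0.24, the atrial myosin gene myh6 at -0.32 ± 0.16, the troponin genes tnni1b and tnnc1a at -0.28 ± 0.11 and -0.44 ± 0.29, and the transcription factor gene gata5 at -0.46 ± 0.22. The calcium pump regulator gene pln, which is not in the list, was at -0.47 ± 0.21. None of these was called with all positions, and myl7, pln, cmlc1 and myh6 were called without position 2, with adjusted p between 0.0036 and 0.0415. Position 2 held the smallest difference of myl7 and myh6, at -0.08 and -0.05. Without positions 1, 3, 4 or 5 the limma adjusted p of myl7, cmlc1 and myh6 with the block was between 0.104 and 0.737. The members of the heart list near 0 were the giant sarcomere gene ttn.2 at -0.04 ± 0.23, actn2b, an actinin gene, at -0.04 ± 0.06, and myl4 at -0.05 ± 0.09. Bulk RNA of heads does not show which tissue the reads of these sarcomere genes came from. The myosin gene vmhc was at -0.12 ± 0.09 and hand2 at -0.11 ± 0.09. At low counts, nppb was at -0.21 ± 0.36 and lower in 3 of 5 positions. The only positive member, bmp10, was at 0.28 ± 0.27, also at low counts, and higher in 5 of 5 positions. In bulk RNA, fewer heart cells in a pool and less of these RNAs per cell cannot be told apart.

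**Figure D4:**
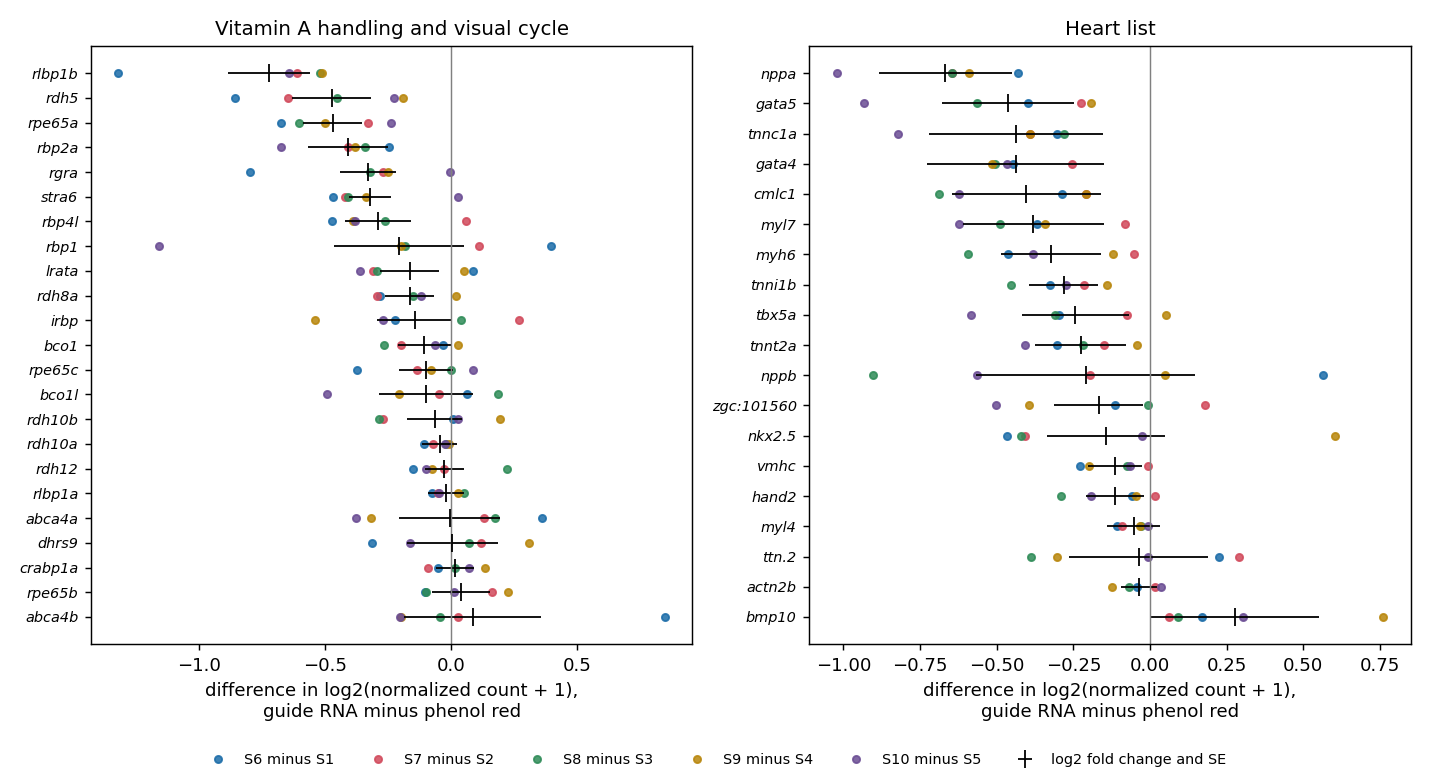
Difference in log2(normalized count + 1), guide RNA minus phenol red, for 23 vitamin A genes (left, drawn up after values were seen) and 19 heart genes (right), with a point for each column position and a bar for the log2 fold change and its unpaired SE. The heart list is shown in full, a choice made after values were seen. All 5 points lie below 0 for rpe65a, rbp2a, rlbp1b and rdh5 at the left and for nppa, gata5 and myl7 at the right.

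The levels of heart, yolk and liver genes varied between the pools. The summed normalized count of the heart list was 29409 to 36593 with guide RNA and 29859 to 45088 with phenol red, of which ttn.2 made up 13864 to 22324 and 11875 to 27552. Without ttn.2 the sum was 13932 to 16241 with guide RNA and 15274 to 17985 with phenol red, and the groups overlapped. The 24 yolk and liver genes summed to 23368 to 96966 with guide RNA and 21924 to 115501 with phenol red, and 21 of them had negative log2 fold changes, with a median of -0.46 and none called. By position the median difference of yolk and liver was -0.38, 0.88, -0.77, -0.84 and -1.44 in positions 1 to 5, and that of heart was -0.30, -0.09, -0.39, -0.14 and -0.41. Position 2 was thus the highest in both lists and position 5 the lowest. The apolipoprotein gene apoa1a was at 6775, 893, 31.1, 198 and 475 with guide RNA, against 5699, 1625, 3441, 554 and 3327 with phenol red, with position 1 high in both groups. Without position 2, where yolk and liver genes were higher with guide RNA, 5 of the 24 were among the 74 genes called with the block (0.343% of all genes), all lower. Without position 1, 3, 4 or 5, 0 of the 24 were called. Leaving out the position with the opposite sign favours calls toward lower values, so the 5 calls are no test of the list. The median of the list depended on single libraries, being -0.01 without S1, -0.21 without S10, -0.97 without S2 and -0.97 without S6. The part of this variation in the lower heart and vitamin A genes was not tested. Skeletal muscle, present in the head and trunk alike, had a median of -0.01 over 35 genes, with position medians of 0.19, 0.23, -0.22, -0.05 and -0.19. That median was -0.08 without position 2 and 0.04 without position 3. The 6 posterior hox genes tested had a median of 0.02 and summed to 138 to 407 with guide RNA and 150 to 326 with phenol red. Their position medians were 0.08, 0.40, -0.51, -0.37 and 0.02. Across 25 alternatives their median ran from -0.24 to 0.21, with the other sign in 6.

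Lens genes lay slightly below 0. Of 32 tested, 31 had negative log2 fold changes, with a median of -0.10, and none was called. The block left 15 lower at an unadjusted p under 0.05 (2.75% of all genes), against 1 without pairing (0.518% of all genes), and 11 were lower in 5 of 5 positions (3.08% of all genes). The lens connexin gene cx44.1 was at 729, 935, 811, 777 and 792 with guide RNA, against 935, 961, 830, 956 and 965 with phenol red. The groups overlapped, since S3 was low among the phenol red libraries, and the log2 fold change was -0.20 ± 0.07 (SE). The beaded filament gene bfsp2 was at -0.16 ± 0.09, the lens membrane gene lim2.5 at -0.12 ± 0.06 and lctla at -0.19 ± 0.09. By position the median was -0.26, -0.01, -0.01, -0.13 and -0.18, and without S6 the median over the list was -0.06.

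Pigment cell genes, which neural crest melanophores and the pigment epithelium of the eye share in part, were also mostly below 0. Of 24 tested, 22 were negative with a median of -0.10, and with the block 8 were lower and 1 higher at an unadjusted p under 0.05, against 2.75% and 4.96% of all genes. The melanin synthesis genes dct and tyrp1a were at -0.25 ± 0.11 (SE) and -0.22 ± 0.10, the melanosome gene oca2 at -0.25 ± 0.13 and tspan36 at -0.21 ± 0.11. The median was -0.03 without S2, and between -0.16 and -0.15 without S1, S3 or S7. For the 44 genes of retina and photoreceptors the median was -0.003, with 24 negative and 20 positive, and it ran from -0.06 without S1 to 0.01 without S6. Its members with the smallest p after rlbp1b were rod phototransduction genes. The rod transducin gene gnat1 was at -0.22 ± 0.12 and the phosphodiesterase genes pde6a and pde6b at -0.21 ± 0.10 and -0.22 ± 0.12. In the unpaired limma fit none of these rod genes had an unadjusted p under 0.05, and rlbp1b alone of the list did. With the block 5 of the 44 were lower and 0 higher at that threshold, against 2.75% and 4.96% of all genes.

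Genes of DNA replication were slightly higher with guide RNA. Of 43 tested, 38 had positive log2 fold changes, with a median of 0.12, and none was called. Counting members at an unadjusted p under 0.05, 4 were higher without pairing and 20 with the block, where 4.96% of all genes were higher, and 14 were higher in 5 of 5 positions, against 4.38% of all genes. The helicase subunit gene mcm3 was at 2991, 3087, 2943, 2824 and 3034 with guide RNA, against 2130, 2866, 2662, 2604 and 2660 with phenol red. Only S2 with phenol red exceeded the lowest guide RNA library, S9, and S1 was the lowest of all. Its log2 fold change was 0.21 ± 0.08 (SE). The other helicase genes mcm4 and mcm5 were at 0.21 ± 0.09 and 0.16 ± 0.07, and chaf1b, for a chromatin assembly factor, at 0.17 ± 0.07. The position medians were 0.23, 0.03, 0.03, 0.09 and 0.13, and the list median was 0.08 without S6.

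Related lists leaned the same way by less. Of 29 genes of nucleotide synthesis and S phase regulation 25 were positive (median 0.06, and 0.01 without S4), with the retinoblastoma gene rb1 at 0.22 ± 0.09 (SE), the repressor gene e2f7 at 0.20 ± 0.08, uhrf1, a factor that maintains DNA methylation, at 0.17 ± 0.08 and rbl1 at 0.14 ± 0.08. Of 33 genes of DNA damage response and repair 26 were positive (median 0.07; 54.7% of all genes), 8 of them higher with the block at an unadjusted p under 0.05 (4.96% of all genes). The checkpoint genes topbp1 and atm were at 0.24 ± 0.08 and 0.19 ± 0.09, the mismatch repair gene msh6 at 0.24 ± 0.10 and the helicase gene blm at 0.17 ± 0.10. The 19 primary microcephaly genes were all positive (median 0.08, and 0.03 at the lowest of 25 alternatives). Their position medians were 0.22, 0.02, 0.02, 0.10 and 0.05, and phenol red S1 had the lowest mean log2 score, -0.21. Of 42 mitosis genes 36 were positive (median 0.05, and 0.03 without S1), with the cytokinesis gene ect2 at 0.17 ± 0.06. With the block 4 of the 19 and 2 of the 42 were higher at an unadjusted p under 0.05 (4.96% of all genes). In 5 of 5 positions 3 of the 19 and 2 of the 42 were higher (4.38% of all genes). None of these genes was called.

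**Figure D5:**
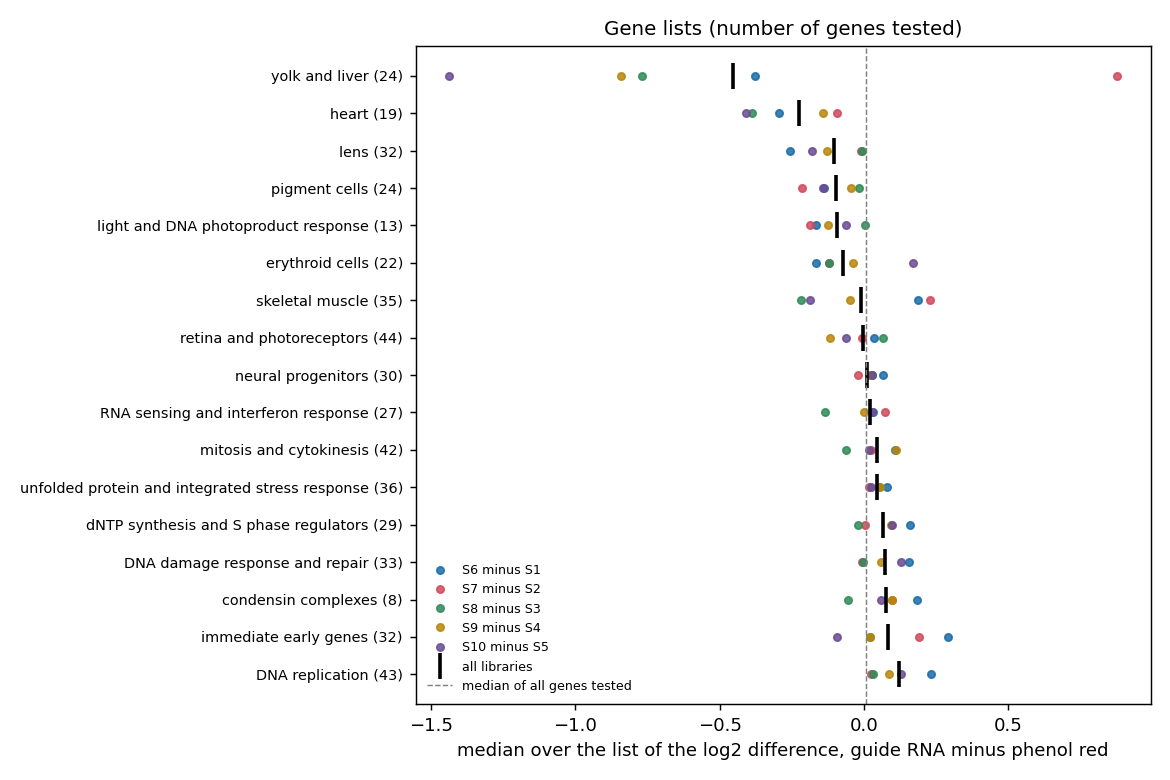
Median over each of 17 gene lists of the log2 difference, guide RNA minus phenol red, with a point for each column position and a black bar for the list's median log2 fold change over all libraries. Heart lies at -0.23, lens at -0.10 and DNA replication at 0.12, and the yolk and liver points run from -1.44 to 0.88.

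Genes that respond to foreign RNA had log2 fold changes on both sides of 0, from -0.78 to 0.56, with a median near 0. The gene at the upper end, ifit8, had low counts, 1.83 to 31.8 with guide RNA and 0 to 30.7 with phenol red. The list of RNA sensing and the interferon response held 45 symbols, and 27 of its genes were tested. The Rig-I gene, listed as rigi and ddx58, and the interferon genes ifnphi1, ifnphi2 and ifnphi3 were not among them. Of the 27 tested, 16 were positive and 11 negative, with a median of 0.02, and none was called. The sign of this median differed in 10 of 25 alternatives, edgeR and DESeq2 among them. The ubiquitin-like effector gene isg15 was at 14.01, 15.98, 12.97, 12.03 and 12.84 with guide RNA, against 11.7, 6.61, 22.2, 15.7 and 14.5 with phenol red. The antiviral gene rsad2 was at 5.50 to 13.04 with guide RNA and 4.40 to 15.2 with phenol red, and mxa reached at most 11.2 with guide RNA and 13.2 with phenol red and was not tested. The Mda5 gene ifih1 was at 96.9 to 127 with guide RNA and 89.0 to 140 with phenol red. These 4 genes were named for their role. Without pairing 2 list members were higher and 1 lower at an unadjusted p under 0.05, against 0.518% of all genes in each direction. The 2 higher were the kinase gene pkz, whose product binds Z-form nucleic acid in fish, at 0.42 ± 0.18 (SE), and tmem173, which encodes the DNA-sensing adaptor STING, at 0.46 ± 0.20. The immunoproteasome subunit gene psmb9a was at 0.48 ± 0.36 and did not pass. The lower member was stat1b, a transcription factor gene of interferon signalling, at 11.2, 11.7, 10.4, 8.02 and 11.004 with guide RNA, against 13.8, 22.02, 16.3, 19.4 and 22.6 with phenol red. Its groups did not overlap, as for 44 of all genes (0.204%), and its log2 fold change was -0.78 ± 0.23, at counts near the filter.

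Stress and activity lists had small medians. The 36 genes of the unfolded protein and integrated stress response had a median of 0.05 with 28 positive, with the chaperone gene hyou1 at 0.08 ± 0.10 (SE) and herpud1 at 0.06 ± 0.07. This median was -0.02 without S6, -0.002 without S4 and 0.005 without S3. The median of the 32 immediate early genes was 0.08, with 29 positive, and 0.02 without S6, the library in which fosaa was high. The 13 genes of the light and DNA photoproduct response had a median of -0.09 with 12 negative, and -0.005 without S6. Of 22 erythroid genes 17 were negative (median -0.07, but 0.04 without S1, 0.0001 without S9 and -0.13 without position 5), and nt5c2l1, a nucleotidase gene, was at -0.27 ± 0.10 and lower in 5 of 5 positions. The 30 neural progenitor genes had a median of 0.01 (-0.03 without S1), with 19 positive and 11 negative. The Notch receptor genes notch1a and notch1b were at 0.20 ± 0.12 and 0.17 ± 0.10, each higher in 5 of 5 positions (4.38% of all genes). By the authors' deposited values her15.1 was at -0.20 ± 0.20. None of these genes was called.

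Groups did not overlap for 20 genes higher (0.0926%) and 24 lower (0.111%) with guide RNA, 17 and 19 of them with a mean of 50 or more. Among the 10 largest of these in each direction, 6 higher and 2 lower ones had clone-style names. Higher were the neuropeptide gene urp2, the transcription factor gene nfixa, tcf19l and the chromatin reader gene ing5b. For urp2 the counts were 107, 89.5, 83.9, 94.3 and 93.5 with guide RNA, against 72.1, 68.3, 63.0, 79.9 and 71.6 with phenol red, a log2 fold change of 0.39 ± 0.11 (SE). Lower beside rpe65a were gnrh3, slc30a8, otol1a, sh3bp2, chst15, ppp1r14aa and fam212aa. The reproductive neuropeptide gene gnrh3 was at 73.8, 76.7, 78.7, 81.2 and 70.6 with guide RNA, against 102, 115, 108, 96.8 and 87.9 with phenol red, a log2 fold change of -0.41 ± 0.11. The zinc transporter gene slc30a8 was at -0.41 ± 0.13 and otol1a, which encodes an otolith matrix protein of the ear, at -0.29 ± 0.12. None of these except rpe65a was called in either fit.

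The smallest p toward higher values with the block belonged to 10 genes, none of them called (adjusted p of 0.101 or more). The histone acetyltransferase scaffold gene trrap was at 3971, 4276, 5101, 4966 and 4563 with guide RNA, against 2891, 3606, 4326, 4418 and 3896 with phenol red. The groups overlapped, each position was higher, and the log2 fold change was 0.27 ± 0.11 (SE; 0.05 with the block). The ubiquitin ligase genes huwe1 and ubr4 were at 0.21 ± 0.14 and 0.20 ± 0.13, the remodeller gene ep400 at 0.20 ± 0.14, the histone methyltransferase gene kmt2d at 0.21 ± 0.12 and the co-regulator gene hcfc1b at 0.22 ± 0.10. The others were ylpm1 (0.26 ± 0.08), the homeodomain gene cux2b (0.24 ± 0.15), the potassium channel gene kcnj14 (0.32 ± 0.11) and nfixa (0.28 ± 0.08). All 10 were higher in 5 of 5 positions, which the rule that chose them required.

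An unpaired limma fit set the libraries with guide RNA plus Cas9 against the same phenol red libraries. It gave log2 fold changes of -0.23 ± 0.16 (SE) for rpe65a, -0.23 ± 0.14 for rbp2a, -0.46 ± 0.28 for nppa and -0.33 ± 0.21 for vmhcl, none called. Without pairing, none of these genes was called with guide RNA alone either, and the block was not used with Cas9. The heart list had a median of -0.28 with guide RNA plus Cas9 and -0.23 with guide RNA alone, and the lens list -0.02 and -0.10. The shared phenol red libraries tie the values of these comparisons to each other.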

How the data were processed

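Poly(A) RNA from embryo heads was sequenced from stranded libraries as single-end reads of 50 bp, with 5 libraries in a lane, per the labels' protocols. Which library ran in which lane is not stated in the labels, so group and lane cannot be told apart. The submitters' processing notes name STAR, HTSeq and DESeq2, beside trimming tools. No source used here gives tool versions, genome build or strand setting. The values deposited are a normalized signal, the authors' count for a gene divided by a size factor per library, beside the authors' log2 fold changes, standard errors, test statistic (score) and p-values. Group membership of a column follows from the 2 deposited tables in which it occurs, and columns carry no replicate number.

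Values were whole multiples of the smallest value above 0 in 100% of cases, within 0.001 of a read, and division by that step gave reads for the count tests. The main test was limma 3.58.1 (R 4.3.3; trend, robust empirical Bayes) on log2(value + 1), unpaired, for genes that reached a value of 10 in 5 or more of the 10 libraries, with a Benjamini-Hochberg threshold of 0.05. Fold changes are on that scale, which understates changes of low genes. Alternatives were column position as a replicate block, TMM rescaling, edgeR 4.0.16 and DESeq2 1.42.0 on recovered reads, filters of 50 and none, pseudocounts of 5 and 0.5, a fit of all 3 groups, non-robust moderation, and each library or position left out. edgeR with the block was added after seeing the data. Pairing came from the data and not from the labels, since every pair of libraries at the same position correlated above 0.1 in deviations from the group means (lowest 0.44).

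The 36 lists (969 of 1058 symbols matched, some by synonyms in RefSeq's gene table for GRCz12tu) were described by counts and medians, without a test. The comparison, the members and the lists were chosen with earlier results of these data known, and 1 further list drawn up is not reported here. Genes were named by rule. It takes ncapg2, every called gene, and the 10 largest differences in each direction with a mean of 50 or more and no overlap. It adds the 10 smallest block p in each direction with the same sign in 5 of 5 positions, and up to 4 members with the smallest p from each list described (all of a list of 10 or fewer). Exceptions are stated where they occur. For the heart list more than 4 members are named, a choice made after values were seen. The fits were also run on simulated counts, with position effects and spread estimated from these same libraries under the block. No result here rests on that run.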

Additional observations from a re-analysis of the deposited data

Results flagged for a closer look

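In groups of 5 libraries, 1 value stood apart from the other 4 in 21 of 234 groups tested, each by a gap over 0.71 of the group's range, and chance flags about 1 in 20 groups. Guide RNA library S6 was high for the yolk and liver genes apobb.1 (13731, others 751 to 2811), apoa1a (6775, others 31.1 to 893), apoc1 (1490, others 231 to 433) and apoea (1324, others 4.32 to 181). Its mean log2 score of the yolk and liver list was 1.83, against -1.11 to -0.56 in the other guide RNA libraries. Phenol red library S1, of the same column position, was at 2.14, against -1.72 to 0.77 in the other phenol red libraries. S6 was also high for fosaa (431), uhrf1 (3928), herpud1 (1344) and tnni2b.1 (5090), and its score of the light and DNA photoproduct response was low at -0.43, against -0.005 to 0.10. Among other guide RNA libraries, S10 was low for vmhcl (1401, others 2233 to 2547) and S7 for prc1a (930) and blf (26.6).

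Phenol red library S1 was low for the condensin genes smc4 (2189, others 3225 to 3564) and ncapd2 (2005, others 2661 to 2778) and high for herpud1 (1288), and S4 was low for ncaph2 (669, others 800 to 849). S5 was low for tcf19l (280), S3 low for cx44.1 (830) and S2 high for oca2 (708). The recovered reads of S5, 46.46 M (M, mega), were above those of the other phenol red libraries (34.97 to 37.08 M).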

How the results depend on the processing

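The count of called genes was 0 by TMM rescaling, edgeR, DESeq2, both filters, both pseudocounts, the fit of all 3 groups, non-robust moderation and without each library in turn. With the replicate block it was 4 by limma and 4 by edgeR, and between 0 and 74 when a column position was also left out. At an unadjusted p under 0.05, 224 genes without the block became 1665 with it (1651 by edgeR), between 173 and 362 without single libraries (362 without S2, 342 without S6) and between 1125 and 2050 without single positions under the block. The cause of these moves was not tested. The lowest correlation within a position was 0.33 without the filter, against 0.44. Of the 98 genes named by rule besides ncapg2, the log2 fold change turned sign for ncaph2 (from -0.000346 without S4 to 0.0854 without S5) and cry5 (from -0.607 without S1 to 0.0057 without S6). The ncapg2 value ranged from 0.05 to 0.13 without single libraries or positions.

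With 5 pools per group, the median standard error was 0.10 on the log2 scale without the block and 0.06 with it.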
